A study of Mus musculus with 6 samples.

Results

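The Cyp3a family of cytochrome P450 genes was described across 6 liver libraries as 8 of the 55401 genes in the deposited count table. The members were taken by symbol: Cyp3a11, Cyp3a13, Cyp3a16, Cyp3a25, Cyp3a41a, Cyp3a41b, Cyp3a44 and Cyp3a59. They were chosen by symbol as a family after the levels in OP and HFCF livers, the contrast described below, had been seen, so their values are a description and carry no test. The OP group held 3 samples of fresh C57BL/6 mouse liver labelled OP-treated, where the series title names okra polysaccharide, a carbohydrate fraction from okra, and the HFCF group 3 samples from C57BL/6 mice fed a high fat/cholesterol/fructose diet. The series addresses metabolic-associated fatty liver disease. The labels give neither the diet of the OP mice nor the dose, sex, age or number of animals, and livers of mice on ordinary chow were not analysed here. Nothing states that each sample is its own animal, so the p-values reflect spread among these samples, some of which may be technical. Levels are in CPM, gene counts divided by the scaled size of the library and brought to a common total, and all changes are log2 fold changes of OP minus HFCF.

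CYP3A enzymes are heme proteins of the endoplasmic reticulum that oxidise drugs, steroids and bile acids with electrons passed on by cytochrome P450 reductase and cytochrome b5. In liver their genes are switched on mainly by the nuclear receptors PXR and CAR, which pair with RXR, on a background of hepatocyte factors such as HNF4A. In the mouse, Cyp3a11 is a major form of adult liver, Cyp3a25 is another adult liver form, Cyp3a13 is made in liver and intestine, Cyp3a16 is known from fetal and newborn liver, and Cyp3a41 and Cyp3a44 are made mainly in female liver. All members lie on mouse chromosome 5. In GENCODE M21 each has a protein-coding transcript of 13 exons, Cyp3a13 stands apart from the rest, and the others follow each other in the order Cyp3a16, Cyp3a41b, Cyp3a41a, Cyp3a44, Cyp3a11, Cyp3a25 and Cyp3a59 in the RefSeq gene table, with Cyp3a57, which is not a member, before Cyp3a16.

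The sequences of the members fell into 3 branches, which bears on how far their reads can be told apart. Cyp3a25 and Cyp3a59 had 97.0% identical bases over their aligned transcripts. Cyp3a11, Cyp3a16, Cyp3a41a, Cyp3a41b and Cyp3a44 were 91.6% to 99.9% identical to each other. Cyp3a13 was 71.7% to 73.0% identical to each other member. Cyp3a41a and Cyp3a41b were the closest, and 82.9% of the 150-base stretches of Cyp3a41a, the length of a read, also stood in Cyp3a41b. That share was 0.702% for Cyp3a25 in Cyp3a59, where it was 24.6% for stretches of 50 bases. For Cyp3a11 no 150-base stretch, and 14.8% of the 50-base stretches, occurred in another Cyp3a transcript, and for Cyp3a13 none of either length did. The sources used here do not say how reads that match several copies were counted, so the split between Cyp3a41a and Cyp3a41b is uncertain, and that between Cyp3a25 and Cyp3a59 partly so. No member shared exon bases with another gene on either strand in GENCODE M21.

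**Figure D1:**
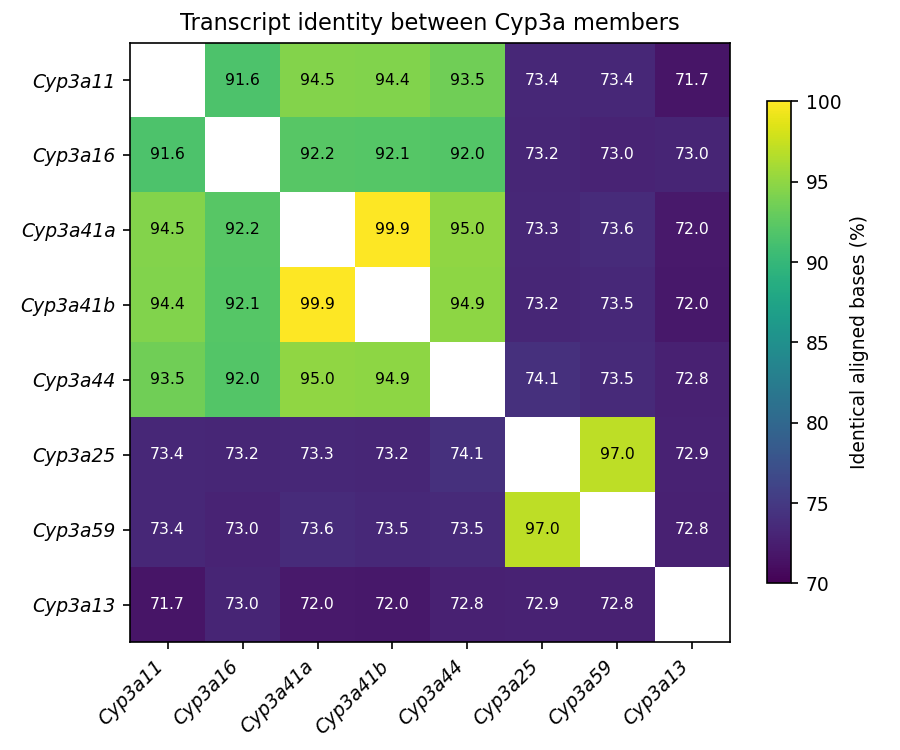
Percent of identical bases over the aligned part of the longest protein-coding transcripts (GENCODE M21), for each combination of the 8 members along both axes. Cyp3a25 with Cyp3a59 (97.0%) and the 5 Cyp3a11-like genes form blocks, and Cyp3a13 is apart from both.

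The regions before the annotated starts are shown because they split the members in the same way as the transcripts. RefSeq start regions (GRCm38.p6, an earlier build than the GRCm39 named by the submitters) matched all 8 members, and the 250 bases before the start are given for the 4 abundant members and for Cyp3a44, which was nearly silent. Cyp3a25 had 2 such regions, and only the first listed is shown and used below. They lie at chr5:146009619-146009868 on the minus strand for Cyp3a25, chr5:146079008-146079257 on the plus strand for Cyp3a59, chr5:145879855-145880104 on the minus strand for Cyp3a11, chr5:145805875-145806124 on the minus strand for Cyp3a44 and chr5:137921620-137921869 on the minus strand for Cyp3a13. Capitals mark AGGTCA and AGTTCA, core hexamers of nuclear receptor elements, and TGTTTAC, a FOXA core, on either strand.
Cyp3a25: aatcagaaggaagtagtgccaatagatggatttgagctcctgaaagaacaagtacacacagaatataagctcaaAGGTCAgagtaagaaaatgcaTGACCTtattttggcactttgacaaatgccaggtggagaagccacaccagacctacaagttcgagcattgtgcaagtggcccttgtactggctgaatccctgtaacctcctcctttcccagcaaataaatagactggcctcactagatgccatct
Cyp3a59: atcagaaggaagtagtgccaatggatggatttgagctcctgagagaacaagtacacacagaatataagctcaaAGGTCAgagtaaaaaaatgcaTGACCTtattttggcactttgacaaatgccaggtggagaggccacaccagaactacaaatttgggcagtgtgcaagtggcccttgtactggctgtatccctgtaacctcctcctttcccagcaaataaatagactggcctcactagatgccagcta
Cyp3a11: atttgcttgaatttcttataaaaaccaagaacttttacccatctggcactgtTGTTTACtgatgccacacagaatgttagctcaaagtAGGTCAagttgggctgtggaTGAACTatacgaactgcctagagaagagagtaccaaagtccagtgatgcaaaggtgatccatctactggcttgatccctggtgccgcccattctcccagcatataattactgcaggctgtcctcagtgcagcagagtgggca
Cyp3a44: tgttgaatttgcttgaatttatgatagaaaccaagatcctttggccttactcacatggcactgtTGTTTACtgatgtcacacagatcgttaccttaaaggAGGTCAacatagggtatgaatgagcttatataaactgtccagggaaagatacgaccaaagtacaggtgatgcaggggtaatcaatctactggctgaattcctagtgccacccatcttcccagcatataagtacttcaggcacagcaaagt
Cyp3a13: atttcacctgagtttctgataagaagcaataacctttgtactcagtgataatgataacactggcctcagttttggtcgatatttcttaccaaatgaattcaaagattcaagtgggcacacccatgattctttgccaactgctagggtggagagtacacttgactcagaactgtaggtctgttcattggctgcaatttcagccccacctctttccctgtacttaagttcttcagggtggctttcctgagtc

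Cyp3a25 and Cyp3a59 were 95.6% identical over these upstream bases and carried the same arrangement, AGGTCA followed by its reverse complement. In Cyp3a25 these lay 176 to 171 and 155 to 150 bases before the start, and in Cyp3a59 177 to 172 and 156 to 151 bases before it. AGGTCA occurred in 13.8% of 27025 RefSeq upstream regions of this length. Cyp3a11, at 80.9% identity to Cyp3a44 over the aligned upstream bases, held TGTTTAC at 198 to 192, AGGTCA at 162 to 157 and AGTTCA, on the opposite strand, at 142 to 137 bases. Cyp3a44 held AGGTCA at 150 to 145 bases but not the other hexamer. The FOXA core also stood in Cyp3a16, Cyp3a41a, Cyp3a41b and Cyp3a44, and in 3.09% of all upstream regions. AGTTCA was also found in Cyp3a41a and Cyp3a41b, and in 11.9% of all regions. TATAAA occurred in the same 5 members as TGTTTAC (13% of all regions), TTGCNNAA, a C/EBP core, in Cyp3a25 alone among the members (9.55%), and TTCNNNGAA, a STAT core, in none of them (7.18%). None of these letters was found in the window of Cyp3a13. A match of letters is not a bound site, and no binding was measured.

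The libraries held 50635853 to 61918541 counts in OP and 46459980 to 58822973 counts in HFCF. The level of 3 counts, taken as the floor of detection, was 0.0472 to 0.0625 CPM, and it covers counting error only. HFCF replicates 1 and 2 were nearer to each other than any other replicates (chi-square of 46.2 per degree of freedom, elsewhere 148 to 350.0). Mitochondrially encoded genes took 6.41% to 15.0% of the counts in OP and 14.3% to 22.3% in HFCF. Hepatocyte markers were abundant in every library, with the sum of 7 genes such as Alb, Apoa1 and Ttr at 55453 to 82492 CPM in OP and 34900 to 57848 CPM in HFCF, and 1 of the 7 passed the test described below, Ttr, which was higher in OP. By unadjusted p under 0.05, 4 of the 7 were higher, and DESeq2 called 3 higher. Of 17394 genes tested (edgeR's quasi-likelihood test, Benjamini-Hochberg adjusted p under 0.05), 3.26% were higher in OP and 3.47% lower, and in 31.2% the groups did not overlap.

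Of the 8 members, 4 were abundant enough to be tested, Cyp3a11, Cyp3a25, Cyp3a13 and Cyp3a59, and the other 4 were not. Cyp3a11, Cyp3a25 and Cyp3a59 were lower in OP livers without overlap between groups, and Cyp3a13 was at a like level in both. By the all-gene fit 3 members were called lower in OP, beside 3.47% of all tested genes called lower, and none higher, beside 3.26% (6.73% in either direction). In 3 of the 4 the groups did not overlap, beside 31.2% of all tested genes. Cyp3a25 and Cyp3a59 were also called whichever library was left out, while the call of Cyp3a11 was lost without any library but OP replicate 3. Since the family was chosen with this contrast known, nothing is read from these counts or calls. In whole liver, fewer cells of a type and less RNA per cell cannot be told apart. The fold changes of the 7 hepatocyte markers ran from 0.11 for Fgb to 1.13 for Ttr on the log2 scale, and only Ttr passed. Alb, Fgb and Ahsg overlapped between groups. The part of the share of hepatocytes in the Cyp3a levels was not tested.

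Cyp3a25 (ENSMUSG00000029630) stood at 699, 642 and 680 CPM in the 3 OP libraries, against 1843, 1871 and 1905 CPM in the 3 HFCF libraries. The libraries of each group lay close together, with means of 674 ± 29.3 CPM in OP and 1873 ± 30.7 CPM in HFCF (SD, n = 3 each). The log2 fold change was -1.48 ± 0.144 (SE), so the OP level was 0.360 times that in HFCF. Among all genes ranked by count, Cyp3a25 held places 178 to 196 in OP and 68 to 73 in HFCF.

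Cyp3a59 (ENSMUSG00000061292), the close relative of Cyp3a25, had the largest difference of the tested members. It stood at 28.7, 23.7 and 16.3 CPM in OP, against 86.8, 101 and 116 CPM in HFCF. All OP libraries were below all HFCF libraries, and OP replicate 3 was the lowest. The means were 22.9 ± 6.22 CPM in OP and 101 ± 14.4 CPM in HFCF (SD, n = 3 each), with a log2 fold change of -2.14 ± 0.226 (SE), or 0.226 times the HFCF level. Summing the counts of Cyp3a25 and Cyp3a59 into 1 feature, which does not depend on how shared reads were split between them, gave -1.50 ± 0.146 (SE). This sum is mostly Cyp3a25, so it cannot check the value of Cyp3a59. Nor would it restore shared reads that were left out of both counts.

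Cyp3a11 (ENSMUSG00000056035), the member with the most counts in OP, differed less. It stood at 1238, 1006 and 992 CPM in OP, against 1745, 1750 and 2091 CPM in HFCF. OP replicate 1 was the highest of its group and HFCF replicate 3 the highest of the other, and the groups did not overlap. The means were 1079 ± 138 CPM in OP and 1862 ± 198 CPM in HFCF (SD, n = 3 each). The log2 fold change was -0.79 ± 0.170 (SE), or 0.579 times the HFCF level. Summed with its near relatives Cyp3a16, Cyp3a41a, Cyp3a41b and Cyp3a44 the value stayed at -0.79, since those genes had few counts.

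Cyp3a13 (ENSMUSG00000029727) stood at 120, 121 and 69.7 CPM in OP, against 89.7, 95.9 and 113 CPM in HFCF. The groups overlapped, with OP replicate 3 the lowest of all 6 libraries and the other OP libraries above every HFCF library. The means were 104 ± 29.4 CPM in OP and 99.5 ± 11.9 CPM in HFCF (SD, n = 3 each), with a log2 fold change of 0.06 ± 0.223 (SE). It lay between -0.06 and 0.28 when each library was left out in turn, so these libraries gave no direction for this gene.

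**Figure D2:**
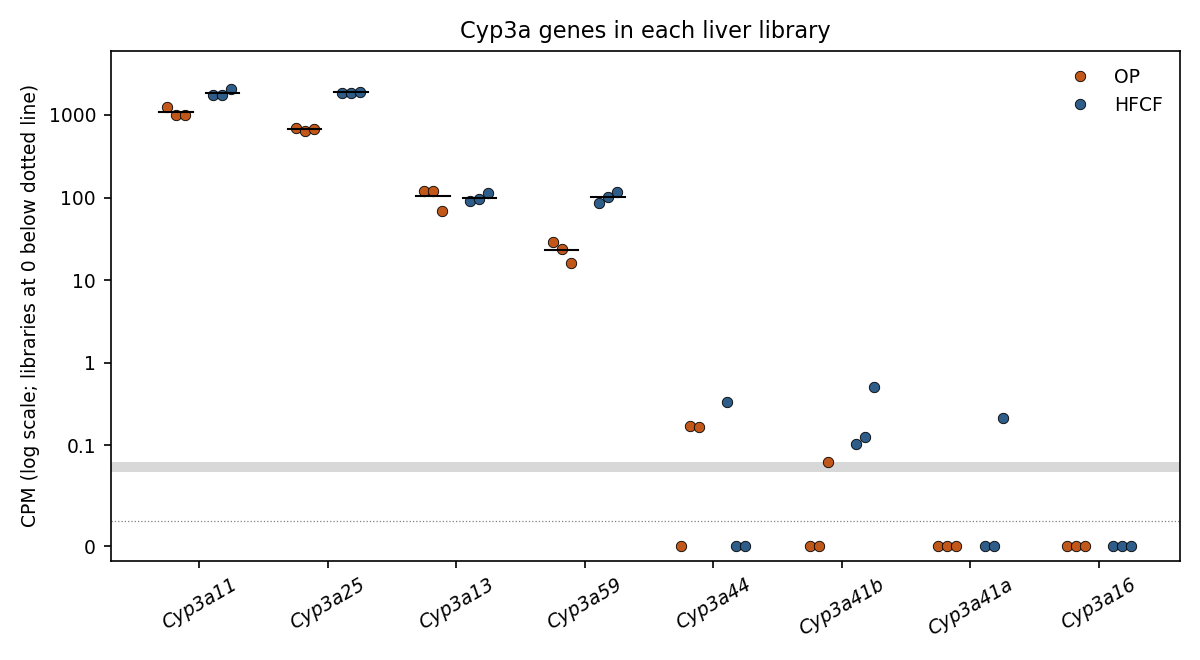
CPM of each Cyp3a member in each library on a log axis, OP left and HFCF right for each gene; black lines are group means of the 4 abundant members, the grey band is the level of 3 counts (0.0472 to 0.0625 CPM) and points below the dotted line are libraries at 0. Cyp3a11, Cyp3a25 and Cyp3a59 are lower in all OP libraries, Cyp3a13 overlaps and the other 4 members lie near the floor.

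The members of early life and of female liver were at or near the floor in both groups. Cyp3a16 had no counts in any library, which allows a level of up to 0.0472 to 0.0625 CPM. Cyp3a41a had 0 counts in each OP library and 0, 0 and 13 in the HFCF libraries. Cyp3a41b had 0, 0 and 3 counts in OP and 5, 6 and 31 counts in HFCF. Cyp3a44 had 0, 11 and 8 counts in OP and 16, 0 and 0 in HFCF. No fold change is given for these genes. Their counts summed to at most 44 in a library, in HFCF replicate 3, beside 126631 counts of Cyp3a11 there. In each library more genes had 4 counts than 3 or 5 (909 against 482 and 257 in OP replicate 1), so several counts may come from a single read pair, and so low a count may stand for fewer molecules than it reads. Of the 3 other rows of the family, Cyp3a57 had 12 counts in HFCF replicate 2 and 0 elsewhere, and the pseudogenes Cyp3a61-ps1 and Cyp3a63-ps had none.

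The order of the members changed between the groups once levels were divided by transcript length. In OP, Cyp3a11 led with 460 ± 58.9 CPM per kilobase, followed by Cyp3a25 at 337 ± 14.6, Cyp3a13 at 35.1 ± 9.96 and Cyp3a59 at 11.5 ± 3.13 CPM per kilobase (SD, n = 3). In HFCF, Cyp3a25 led with 936 ± 15.4 CPM per kilobase, followed by Cyp3a11 at 794 ± 84.5, Cyp3a59 at 50.9 ± 7.25 and Cyp3a13 at 33.6 ± 4.04 CPM per kilobase (SD, n = 3). Both changes of place held in each library, as the lowest value of the higher gene was above the highest of the lower gene. The lengths used were those of the longest protein-coding transcript, 2344 bases for Cyp3a11 and 2000 for Cyp3a25. On the CPM scale, which is not divided by length, both changes of place had an exception: Cyp3a11 was above Cyp3a25 in HFCF replicate 3 (2091 and 1905 CPM), and Cyp3a13 above Cyp3a59 in HFCF replicate 1 (89.7 and 86.8 CPM).

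Added up per kilobase, the 8 members came to 844 ± 77.5 in OP and 1816 ± 109 in HFCF (CPM per kilobase, SD, n = 3 each). Cyp3a11 made up 53.2% to 56.6% of that sum in OP and 42.3% to 46.0% in HFCF, and Cyp3a25 37.5% to 42.8% in OP and 49.1% to 53.0% in HFCF. Cyp3a13 contributed 2.96% to 5.09% in OP and 1.74% to 1.97% in HFCF, and Cyp3a59 1.03% to 1.55% in OP and 2.51% to 2.99% in HFCF. In counts, the family took 0.176% to 0.209% of the scaled library in OP and 0.377% to 0.422% in HFCF. The summed counts gave a log2 fold change of -1.07 ± 0.168 (SE), and -1.08 with mitochondrially encoded genes left out.

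**Figure D3:**
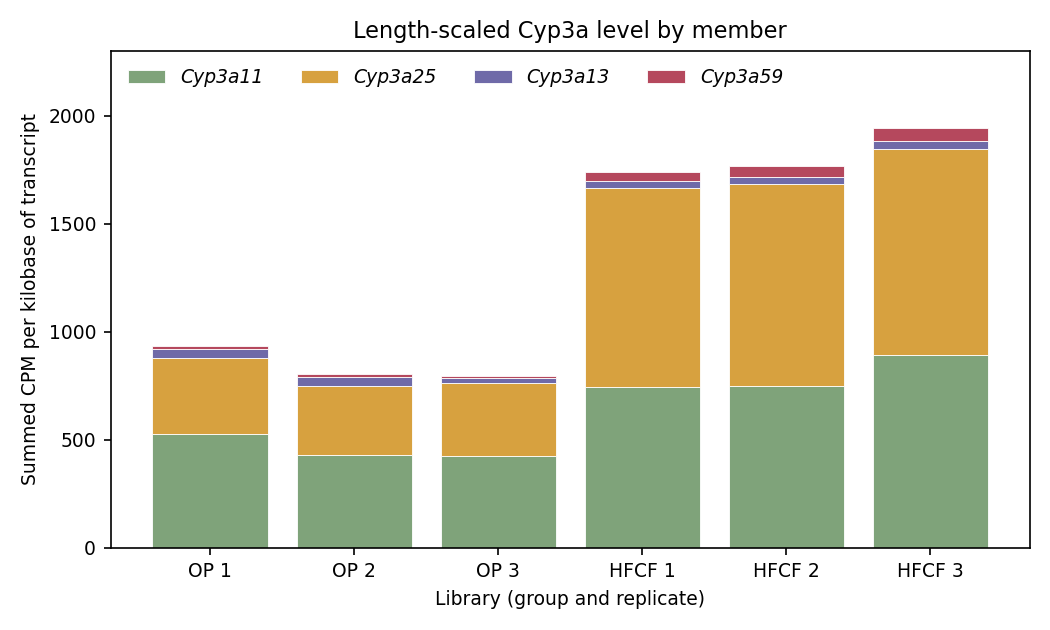
Stacked CPM per kilobase of the 4 abundant members in each of the 6 libraries, with libraries on the horizontal axis. The bars reach 795 to 933 in OP and 1740 to 1941 in HFCF, and the Cyp3a25 band differs most between the groups.

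Ratios within a library do not depend on how libraries are scaled to each other. The ratio of Cyp3a25 to Cyp3a11 per kilobase was 0.662, 0.748 and 0.803 in OP, against 1.24, 1.25 and 1.07 in HFCF. The ratio of Cyp3a59 to Cyp3a25 was 0.0412, 0.0371 and 0.0241 in OP, against 0.0473, 0.0545 and 0.0610 in HFCF. The ratio of Cyp3a13 to Cyp3a11 was 0.0772, 0.0953 and 0.0557 in OP, against 0.0408, 0.0434 and 0.0428 in HFCF. In each the groups did not overlap, so the members differed between these OP and HFCF libraries to unequal degrees. Within the OP group the ratios spread more widely for Cyp3a13 than in HFCF. The members were chosen with this contrast known, so the ratios are a description and carry no test. How often ratios of other genes separate the groups was not examined. The ratio of Cyp3a59 to Cyp3a25 also rests on a split of reads that is partly uncertain.

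**Figure D4:**
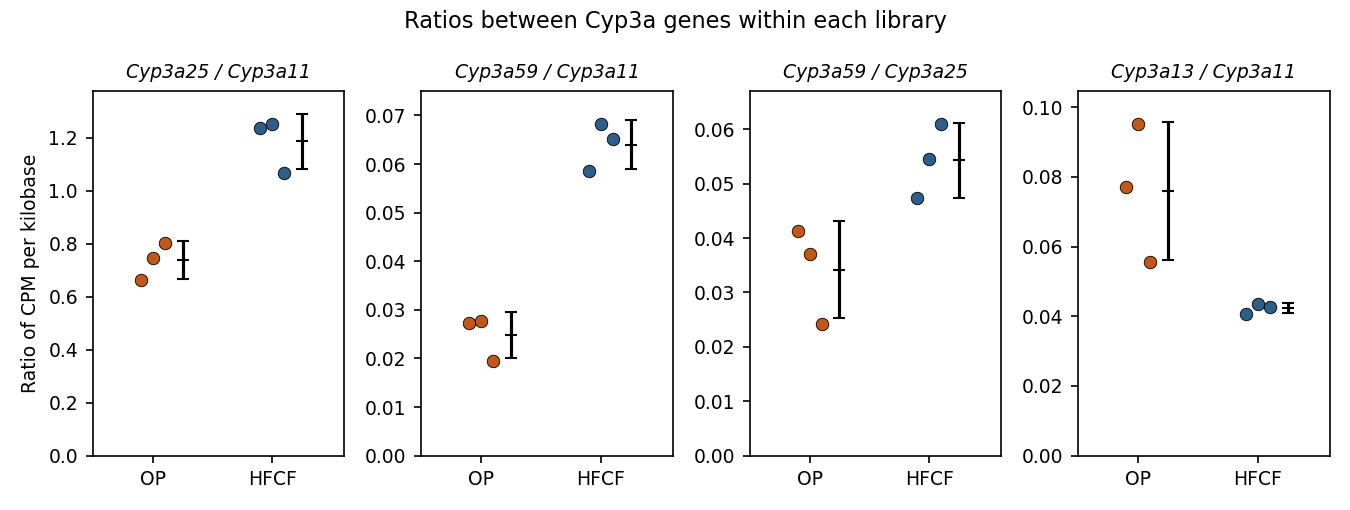
Ratio of CPM per kilobase between members within each library, with each library as a point and the mean ± SD of 3 libraries beside it, OP left and HFCF right. Cyp3a25 and Cyp3a59 are low against Cyp3a11 in OP, and Cyp3a13 is high against it.

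None of the tested nuclear receptors that act on Cyp3a genes passed the test after adjustment. Nr1i2, which encodes PXR, averaged 117 ± 32.4 CPM in OP and 94.3 ± 9.13 CPM in HFCF (here and below ± SD, n = 3 each), with a log2 fold change of 0.32 ± 0.202 (SE; Benjamini-Hochberg adjusted p = 0.376, edgeR's quasi-likelihood test). Nr1i3, which encodes CAR, averaged 1323 ± 213 CPM in OP and 1096 ± 101 CPM in HFCF (0.27 ± 0.174, SE; adjusted p = 0.378 in the same edgeR test). Rxra (0.15 ± 0.152) and Hnf4a (0.35 ± 0.210) were likewise short of the threshold. In a list of 27 regulators, 26 were tested, of which 2 were higher in OP, 2 lower and 22 did not pass. By edgeR's unadjusted p under 0.05, 8 were higher and 3 lower, and DESeq2 called 6 higher and 3 lower.

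The regulators that passed are known from growth hormone and fasting signalling. Bcl6, a repressor linked to growth hormone action in liver, rose to 31.7 to 61.0 CPM in OP, against 9.82 to 13.6 CPM in HFCF (1.84 ± 0.260, SE; adjusted p = 0.00955 in edgeR's quasi-likelihood test). Cux2, a repressor known from female liver, fell to 0.519 to 1.30 CPM in OP, against 9.49 to 12.8 CPM in HFCF (-3.85 ± 0.388, SE; adjusted p = 0.00309 in the same edgeR test). Ppargc1a, a coactivator of gluconeogenic and mitochondrial genes that also works with PXR and HNF4A, fell by 2.25 on the log2 scale, and Foxo1, a forkhead factor restrained by insulin, rose by 0.83. The tested regulators had a median log2 fold change of 0.34, beside 0.02 over all tested genes. Leaving out any single library did not end the calls of Cux2 and Ppargc1a. Bcl6 lost its call without HFCF replicate 1 or 2, and Foxo1 without these, HFCF replicate 3 or OP replicate 1.

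Among genes of electron transfer and of heme synthesis, binding or breakdown, 4 of 14 tested rose in OP, none fell and 10 did not pass. By edgeR's unadjusted p under 0.05, 9 were higher and 1 lower, and DESeq2 called 8 higher and 1 lower. Alad, the second enzyme of heme synthesis, averaged 249 ± 29.8 CPM in OP and 129 ± 3.67 CPM in HFCF (0.95 ± 0.140, SE; adjusted p = 0.0105 in edgeR's quasi-likelihood test). Cyb5b, an outer mitochondrial membrane cytochrome b5, rose by 1.04, Pgrmc1, a heme-binding membrane protein that partners P450 enzymes, by 0.69, and Cyb5r3, a cytochrome b5 reductase, by 0.68. Por, the P450 reductase itself, averaged 461 ± 78.0 CPM in OP and 414 ± 21.0 CPM in HFCF (adjusted p = 0.600 in the same edgeR test). Cyb5a, the microsomal cytochrome b5, averaged 1258 ± 79.0 CPM in OP and 817 ± 91.7 CPM in HFCF (adjusted p = 0.0503 in the same edgeR test), just outside the threshold. The median was 0.58 against 0.02 for all tested genes. None of the 14 was called when OP replicate 1, HFCF replicate 1 or HFCF replicate 2 was left out, and only 1 without OP replicate 2. Pgrmc1 was also not called without OP replicate 3, and neither it nor Cyb5r3 with RLE scaling. Without a low-count filter Alad was the only one of the 4 still called.

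Other genes known to respond to PXR or CAR went both ways, with 3 of 18 tested higher in OP, 1 lower and 14 not passing. Aldh1a1, a retinal dehydrogenase, stood at 1733, 1639 and 1441 CPM in OP, against 677, 647 and 886 CPM in HFCF (1.12 ± 0.180, SE; adjusted p = 0.0132 in edgeR's quasi-likelihood test). Cyp2c29 rose by 1.02 and Cyp2c37 by 0.64 (adjusted p = 0.0488 and 0.0489 in the same edgeR test); both are hepatic P450 genes with close copies. Slco1a4, an organic anion transporter, fell to 60.2, 45.9 and 40.7 CPM in OP, against 121, 131 and 104 CPM in HFCF (-1.27 ± 0.182, SE; adjusted p = 0.00955 in the same edgeR test). Cyp2b10, a standard target of CAR, was too low to be tested. The median was 0.26, and no gene of this list was called without HFCF replicate 1 or without HFCF replicate 2. Aldh1a1, Cyp2c29 and Cyp2c37 were also not called without OP replicate 1, and Cyp2c29 and Cyp2c37 not with RLE scaling.

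**Figure D5:**
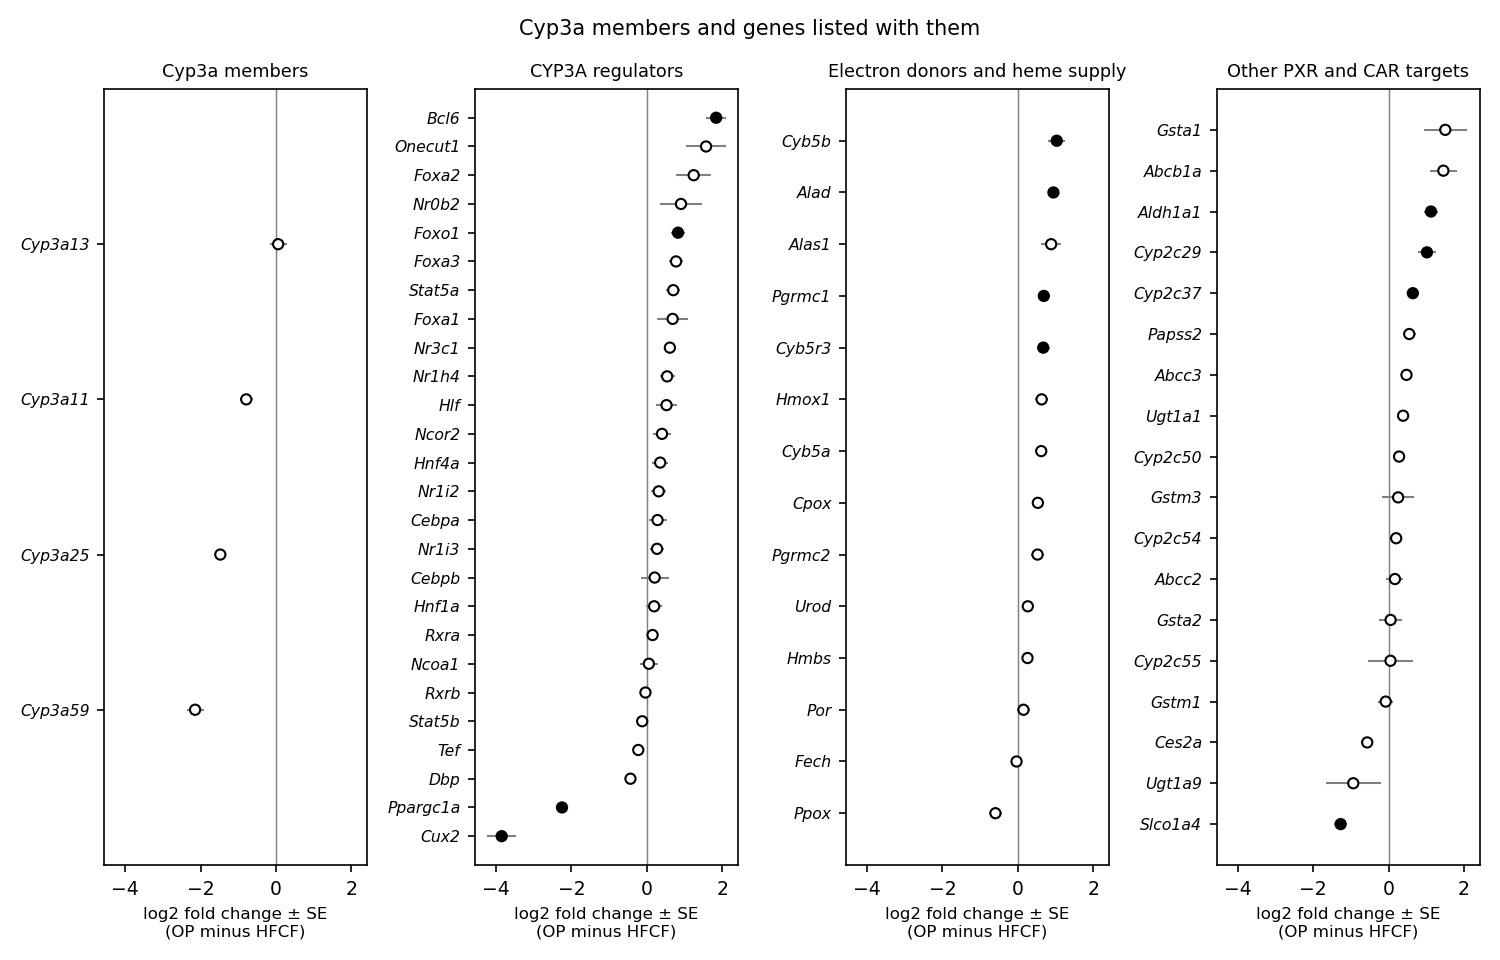
Log2 fold changes (OP minus HFCF, bars ± SE, n = 3 libraries per group) of the tested Cyp3a members and of 3 gene lists, each gene on a line of its own. Filled points passed an adjusted p under 0.05, and members are drawn unfilled because they carry no test.

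Since Cyp3a41a, Cyp3a41b and Cyp3a44 belong to female liver, sex-linked and sex-biased transcripts were set beside them. All 4 Y-linked transcripts listed were detected in every library, so each library held RNA of male mice, although the labels give no sex. The log2 fold changes of these transcripts were -0.27 for Ddx3y, -0.29 for Eif2s3y, -0.49 for Kdm5d and -0.56 for Uty. Ddx3y stood at 38.8 to 48.8 CPM in OP and 46.3 to 55.9 CPM in HFCF, Uty, without overlap, at 8.43 to 12.8 CPM in OP and 14.3 to 15.1 CPM in HFCF, and Xist at 0.456 to 0.583 CPM in OP and 0 to 0.686 CPM in HFCF. None of these 5 passed edgeR's test after adjustment or was called by DESeq2, and 1, Uty, was lower by unadjusted p under 0.05. The sum of the 5 was 106 to 141 CPM in OP and 149.5 to 161 CPM in HFCF. Of 11 tested female-biased genes outside the family, 6 rose in OP and 1 fell, a median of 3.47, or 3.23 with genes at 0 in all HFCF libraries set at their lower bound. Cyp2b9, a female-biased P450, rose to 84.4, 17.7 and 13.5 CPM in OP, against 0, 0.0624 and 0.726 CPM in HFCF. Slc22a26 and Slc22a27, organic anion transporter genes, rose by 3.47 and 4.58. Hao2, a hydroxyacid oxidase, was at least 21.6-fold higher and Cyp2b13 at least 9.40-fold higher in OP than the level of 3 counts per library in HFCF. These bounds, and the median of 3.23, would be lower if 1 read pair stood for several counts. Slc22a29 also rose, by 3.82. Hao2 and Cyp2b13 had 0 counts in every HFCF library, so they passed the low-count filter through their OP counts alone. HFCF counts were 0, 3 and 44 for Cyp2b9 and 9, 10 and 38 for Slc22a26. They were 0, 10 and 32 for Slc22a27 and 22, 0 and 13 for Slc22a29. Without their OP counts these genes also fell short of the filter, which needs enough counts in 3 libraries. The 6 that rose were thus kept through the group where they are high, so nothing is read from their number or the median. Cyp2b13 had no adjusted p with DESeq2 or with counts divided by 4. The Cyp3a members of female liver had too few counts to be tested, so their direction cannot be set beside these genes. Cux2, the member of this list that fell, is also in the list of regulators. Without OP replicate 1 none of the female-biased genes was called higher, without HFCF replicate 2 only 1 was and without HFCF replicate 1 only 2 were. Slc22a29 lost its call with each library left out, and Cyp2b13 without any library but OP replicate 2.

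Of 12 male-biased genes, 1 rose, 2 fell and 9 did not pass, with a median of -0.45. DESeq2 called 2 higher and 5 lower. Serpina1e, an alpha-1-antitrypsin gene with close copies, averaged 955 ± 332 CPM in OP and 3516 ± 451 CPM in HFCF, C6, a complement component gene, 76.2 ± 15.3 CPM in OP and 132 ± 16.4 CPM in HFCF, and Nudt7, a peroxisomal coenzyme A hydrolase gene, 405 ± 161 CPM in OP and 157 ± 6.26 CPM in HFCF. Without HFCF replicate 1 or 2 none of the 3 was called. C6 was called only with all libraries or without OP replicate 3, and Nudt7 also lost its call without HFCF replicate 3.

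Other P450 families of drug and fatty acid oxidation were set beside Cyp3a, with no test between them. Of 42 tested Cyp2 genes 11 rose in OP, 2 fell and 29 did not pass, with a median of 0.32. Cyp2a5, a coumarin hydroxylase, averaged 1860.0 CPM in OP and 666 CPM in HFCF (1.48 ± 0.303, SE), and its neighbour in the family Cyp2a22 averaged 86.9 CPM in OP and 10.4 CPM in HFCF (3.06 ± 0.426, SE). Beside Cyp2b9, Cyp2b13, Cyp2c29 and Cyp2c37, the others that rose were Cyp2u1 by 1.28, Cyp2c38 by 1.18, Cyp2d40 by 1.08, Cyp2j5, an arachidonic acid epoxygenase, by 0.94, and Cyp2d26 by 0.72 on the log2 scale. Cyp2c69 and Cyp2c40 fell by 1.82 and 0.91, so genes of 1 subfamily, Cyp2c, went both ways. With RLE scaling 8 Cyp2 genes were called higher, Cyp2j5 not among them, and without a low-count filter 7, with neither Cyp2j5 nor Cyp2d26. Cyp2b9 and Cyp2b13 are among the 11 and, as said above, passed the low-count filter only with their OP counts. Many of the Cyp2 genes have close copies, between which the counting could split reads. Without OP replicate 1 only 3 Cyp2 genes were called higher, and without HFCF replicate 1 or without HFCF replicate 2 only 1. Cyp2c40 was not called with any library left out, whereas Cyp2u1 and Cyp2c69 were called in each case. Of 16 tested Cyp4 genes, which oxidise fatty acids, Cyp4f14 rose, by 0.98, none fell and 15 did not pass, with a median of -0.28. By edgeR's unadjusted p under 0.05, 5 Cyp4 genes were lower, and DESeq2 called 4 lower. Cyp4f14 was not called without OP replicate 1, HFCF replicate 1 or HFCF replicate 2.

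The tested protein-coding genes nearest to the family were also read out. Zscan25, a zinc finger gene before the cluster, averaged 2.40 ± 0.736 CPM in OP and 5.57 ± 0.792 CPM in HFCF (-1.22 ± 0.279, SE; adjusted p = 0.0400 in edgeR's quasi-likelihood test). That call was lost whichever library was left out. After the cluster, 1700001J03Rik was low, at 0.208 ± 0.191 CPM in OP and 0.300 ± 0.149 CPM in HFCF, and did not pass. Beside Cyp3a13, Gjc3, a connexin gene, stood at 1.28, 1.54 and 1.29 CPM in OP, against 4.54, 3.24 and 4.09 CPM in HFCF (-1.53 ± 0.267, SE; adjusted p = 0.0175 in the same edgeR test). Gjc3 lost its call without OP replicate 1, HFCF replicate 1 or HFCF replicate 2. Pilrb2, on the other side of Cyp3a13, averaged 1.52 CPM in OP and 1.51 CPM in HFCF. Cyp3a13 and its neighbour Gjc3 thus had unlike values in the same libraries.

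The genes outside the family whose profile was nearest to that of the summed members were Rprd1a, Akap5, Brd8, Khdc4 and Nr6a1. Likeness was the root mean square distance of log2(CPM + 0.5), centred on its mean, over the 6 libraries, and it ran from 0.0667 for Rprd1a to 0.0956 for Nr6a1. Rprd1a stood at 10.5, 9.14 and 9.35 CPM in OP, against 18.6, 18.6 and 23.5 CPM in HFCF. Khdc4, the most abundant of the 5, stood at 48.3, 44.5 and 48.0 CPM in OP, against 89.4, 90.9 and 96.1 CPM in HFCF. They were picked for this likeness, so no test is given.

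Markers of other cells also moved with the groups. Of 5 red cell genes 4 fell, and the sum of the 5 was 192 to 414 CPM in OP and 941 to 1767 CPM in HFCF. Alas2, the other red cell gene, went the opposite way, at 59.5 to 70.1 CPM in OP and 47.9 to 53.8 CPM in HFCF, and did not pass. The sum of 5 adipocyte markers was 12.4 to 65.0 CPM in OP and 0 to 4.66 CPM in HFCF, and that of 6 macrophage markers 124 to 198 CPM in OP and 206 to 298 CPM in HFCF, with none of these genes past edgeR's threshold. Most of the adipocyte sum was Cfd, at 12.2, 26.5 and 63.0 CPM in OP and 0, 0.104 and 3.32 CPM in HFCF. The other adipocyte markers overlapped between groups. By unadjusted p under 0.05, 2 macrophage markers were lower and 1 adipocyte marker higher, and DESeq2 called the 2 macrophage markers lower and no adipocyte marker. The sums of endothelial, stellate, cholangiocyte and lymphocyte markers overlapped between groups. The 5 enterocyte markers, listed because Cyp3a13 is also made in intestine, summed to 6.05 to 8.06 CPM in OP and 5.20 to 7.32 CPM in HFCF. Most of that was Lgr5, at 6.04 to 7.74 CPM in OP and 5.20 to 6.92 CPM in HFCF, Vil1 had at most 15 counts in an OP and 22 in an HFCF library, and Cdx1, Cdx2 and Alpi were at 0 in every library. The part of these cells, and of the mitochondrial share, in the levels of the Cyp3a genes was not tested.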

How the data were processed

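Poly(A) RNA of fresh mouse liver was made into dUTP strand-marked libraries and sequenced as paired ends, per the labels' protocols. Cutadapt 1.9, FastQC and the build GRCm39 are named in the submitters' processing notes; the aligner, counter and any use of strand are not stated in those sources. The table deposited by the authors holds raw counts per gene, used unchanged. Symbols were matched by Ensembl identifier (55141 of 55401). Groups followed the titles. The members and gene lists were chosen with earlier results of these data known.

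Genes kept by filterByExpr (17394) were scaled by TMM and tested two-sided with edgeR 4.0.16 (glmQLFit, glmQLFTest; R 4.3.3), adjusted by Benjamini-Hochberg over all tested genes at 0.05. SEs were derived from the log2 fold change and its F statistic. CPM uses TMM-scaled sizes, and CPM per kilobase divides by the longest protein-coding transcript of GENCODE M21 (GRCm38). Transcripts and upstream regions were aligned end to end with Biopython 1.88. The test was tried on simulated counts. Alternatives were DESeq2 1.42.0, RLE, no filter, a replicate block, counts divided by 4, mitochondrial genes left out and leaving out each library. Listed genes are named where they passed, beside 6 named by rule, the neighbours and the 5 nearest profiles. Cyp2b10, the sex-linked genes, Fgb, Cfd, Alas2 and the enterocyte markers were also named after their values were seen. Ces6 and the marker Tf had no row under that symbol and were not used.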

Additional observations from a re-analysis of the deposited data

How the results depend on the processing

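The summed Cyp3a level stayed negative under all 12 alternatives, from -1.15 to -1.01 over the libraries left out and from -1.09 to -1.07 otherwise. Over the libraries left out, Cyp3a11 ranged from -0.90 to -0.70, Cyp3a25 from -1.51 to -1.44, Cyp3a59 from -2.34 to -1.95 and Cyp3a13, which changed sign, from -0.06 to 0.28. The counts of called genes depended far more on the setting. They were 1252 higher and 1262 lower with DESeq2, 298 and 400 without a low-count filter, and 87 and 93 with the replicate block, against 567 and 603. Over the libraries left out they ran from 34 to 655 higher and from 54 to 655 lower. The cause was not tested. Same-numbered samples did not deviate together (r across genes of 0.02, -0.17 and -0.26 for numbers 1, 2 and 3), and the main fit did not pair them. With 3 libraries per group these values cannot show whether same-numbered samples shared a batch. With the block, Cyp3a25 and Cyp3a59 were called and Cyp3a11 was not, and without a low-count filter Cyp3a11 was not called either. Nothing is read from these calls, as the members were chosen with this contrast known. Pilrb2, which did not pass, changed sign from 0.0078 to -0.0030 with DESeq2, -0.0021 with RLE scaling, -0.0034 without a filter, -0.0497 with the replicate block and -0.0039 without mitochondrial genes, and ranged from -0.23 to 0.26 over the libraries left out; 1700001J03Rik ranged from -1.25 to 0.0625, the value without OP replicate 2.

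Counts over gene lists were recomputed as an addition chosen after seeing the data, and they also moved. With DESeq2, 6 regulators, 8 electron and heme genes and 7 other PXR or CAR targets were higher, against 1, 0 and 0 with the replicate block and 1 of each without a low-count filter. Of the male-biased genes 5 were lower with DESeq2 and none with the replicate block. The depth leaves Cyp3a16, Cyp3a41a, Cyp3a41b and Cyp3a44 without a usable fold change, and were 1 read pair worth 4 counts, the detection floor would be higher still.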
